A study of Mus musculus with 61 samples.

Results

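Glycolysis and the response to low oxygen were followed through 32 genes. They were chosen by symbol from the table of 55052 genes for their place in the pathway, with earlier results of these data known. They are 4 transporters of glucose and lactate, 10 enzymes of upper glycolysis, 8 enzymes of lower glycolysis including the lactate dehydrogenase subunits, 3 genes at the pyruvate dehydrogenase step and 7 genes known to respond to hypoxia. Of the 32, 31 had a group mean of at least 1 FPKM (mapped fragments scaled to the length of the transcript and to the depth of the library) in at least 1 group and were tested. The member left out was Pfkp, the platelet type of phosphofructokinase, which was listed at 0 in all 61 libraries. Such an exact 0 can be a failed estimate, although it was not marked as one.

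The libraries came from stembryos (gastruloids), aggregates of mouse embryonic stem (ES) cells that are given a pulse of a Wnt agonist and then form an elongating posterior axis. Wild-type stembryos were followed over 8 stages from 72 h to 168 h after aggregation, 2 libraries a stage, and the study compared mutants of the HoxD cluster with wild type to ask how its CTCF binding sites (CBS) time Hox gene activation. Each library pooled stembryos, and from the later stages the study took only elongating ones, so that the libraries describe the aggregates that grew. The study describes replicates as biological, whereas the labels do not say which libraries came from separate cultures, so p-values here measure the spread between these libraries.

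Outside the time course, wild type had 4 libraries each at 96 h and 120 h and 2 more at 144 h. The mutant lines, homozygous by the study's methods, were Del(CBS1), Del(CBS2), Del(CBS1-2) and Del(CBS1-5), which lack the CTCF sites their names give, Del(CBS4), Del(d1-d4), which lacks Hoxd1 to Hoxd4, Del(sub-TAD1), which lacks the neighbouring regulatory domain, and Ins(2xCBS-d4d8), which carries a pair of extra CTCF sites between Hoxd4 and Hoxd8. Each was sampled at 2 stages between 96 h and 144 h, or 3 for Del(CBS1-5), in 2 libraries a stage or 3 for Del(sub-TAD1) at 96 h. By the methods, most lines were edited in 129/SVEV ES cells and are clones, whereas Del(CBS1-5) and Del(sub-TAD1) ES cells were derived from mutant mice kept on a mixed BL6 and CBA background. Del(CBS1-2) was made in Del(CBS1) cells, and mice with the sub-TAD1 deletion, which removes Mtx2, carried a transgene that supplies it. Line, background and mutation therefore cannot be told apart for these 2 genotypes. The labels name no clone, so clone and mutation cannot be told apart for the edited lines either.

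The libraries fell into 2 sets by 2 mitochondrial transcripts, mt-Co2 and mt-Co3, and no other label marks the sets. In 28 libraries (set 1) mt-Co2 was between 576 and 1464 FPKM, and in 33 libraries (set 2) between 0.205 and 3.85 FPKM. Each mutant was compared with wild type of its stage and set. By inference each library held from 15.1 M to 39.1 M fragments. The share of low values that fell on whole fragments was 71.8% to 76.5% in set 1 and 97.5% to 98.4% in set 2. Depths of set 1 are thus less certain. Markers of the stembryo tissues were present, with presomitic mesoderm markers (6 genes, summed) at 61.4 to 103 FPKM at 72 h and 478 to 700 FPKM at 96 h, and pluripotency markers (8 genes, summed) falling from 1379 to 1496 FPKM at 72 h to 80.3 and 111 FPKM at 96 h. Of 6 markers of primitive erythroid cells none passed the filter.

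Glycolysis takes glucose, brought in by Slc2a1 (GLUT1) and Slc2a3 (GLUT3), through hexokinase, phosphofructokinase, aldolase and the later enzymes to pyruvate. Pyruvate is either reduced to lactate by lactate dehydrogenase and exported, or enters the mitochondrion through pyruvate dehydrogenase, which the kinases Pdk1 and Pdk3 switch off. When oxygen is short, the factor HIF-1 binds DNA at a core that can read ACGTG and raises most glycolytic genes together with genes such as Bnip3, Egln3 and Vegfa, and the early posterior embryo is known for strong glycolysis that is graded along its axis.

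Promoter sequences are shown for 4 members that hold such a core and that the results return to, 2 of the hypoxia response and 2 of lower glycolysis, and they were picked for holding it. They are the 250 bases before the start of transcription from RefSeq on GRCm38.p6, written 5′ to 3′ on the strand of the gene, with ACGTG on either strand in capitals. Where CACGTG stands, the E-box letters, both strands match and are counted as 2. Bnip3 lies on the minus strand (chr7:138909507-138909756), Ldha on the plus strand (chr7:46845554-46845803), Pgk1 on the plus strand (chrX:106186850-106187099) and Egln3 on the minus strand (chr12:54203875-54204124).
Bnip3: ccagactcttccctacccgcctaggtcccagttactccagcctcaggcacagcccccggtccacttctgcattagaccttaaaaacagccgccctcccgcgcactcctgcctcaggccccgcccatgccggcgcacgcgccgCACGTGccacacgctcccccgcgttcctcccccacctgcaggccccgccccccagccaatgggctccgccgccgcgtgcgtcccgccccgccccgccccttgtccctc
Ldha: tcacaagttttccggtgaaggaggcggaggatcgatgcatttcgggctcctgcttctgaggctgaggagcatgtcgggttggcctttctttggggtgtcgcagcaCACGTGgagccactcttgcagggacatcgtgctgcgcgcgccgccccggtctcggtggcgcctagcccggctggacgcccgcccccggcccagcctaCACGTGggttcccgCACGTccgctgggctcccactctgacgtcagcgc
Pgk1: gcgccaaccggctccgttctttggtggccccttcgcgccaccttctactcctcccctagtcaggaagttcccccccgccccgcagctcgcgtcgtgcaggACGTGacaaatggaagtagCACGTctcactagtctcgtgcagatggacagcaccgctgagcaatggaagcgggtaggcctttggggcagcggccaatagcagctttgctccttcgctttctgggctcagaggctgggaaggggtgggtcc
Egln3: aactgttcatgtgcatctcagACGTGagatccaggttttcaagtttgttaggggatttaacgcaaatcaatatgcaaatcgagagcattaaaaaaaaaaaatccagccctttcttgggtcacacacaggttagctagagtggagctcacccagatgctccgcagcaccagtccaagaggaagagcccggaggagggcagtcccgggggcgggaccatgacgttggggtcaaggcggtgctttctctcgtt
The Ldha stretch held 5 matches, those of Bnip3 and Pgk1 held 2 each and that of Egln3 held 1. Of the 30 members with a promoter in the RefSeq table, 18 (60%) had the core in at least 1 of their stretches, and 9 (30%) had 2 or more matches in a stretch. Over all 27025 genes with a promoter the shares were 18.5% and 7.76%. Pdk1 and Aldoc, which also varied widely between libraries, had no match in either of their 2 stretches, which says only that these letters are not in those windows.

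Across the 8 stages of the wild-type time course 22 of 31 members changed (limma, moderated F test over all stages, Benjamini-Hochberg adjusted p under 0.05), a share close to the 71.5% of all 17148 genes tested. All 3 genes at the pyruvate dehydrogenase step, 8 of 9 upper glycolysis genes, 5 of 7 hypoxia response genes, 4 of 8 lower glycolysis genes and 2 of 4 transporters were among them. Gapdh, Pgk1, Pkm, Ldha, Pfkl, Slc16a1, Slc16a3, Bnip3 and Ankrd37 did not pass. In whole stembryos, fewer cells that express a gene and less RNA per cell cannot be told apart. Values below are FPKM, and log2 changes are of FPKM + 0.1, which understates the change of low genes.

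**Figure D1:**
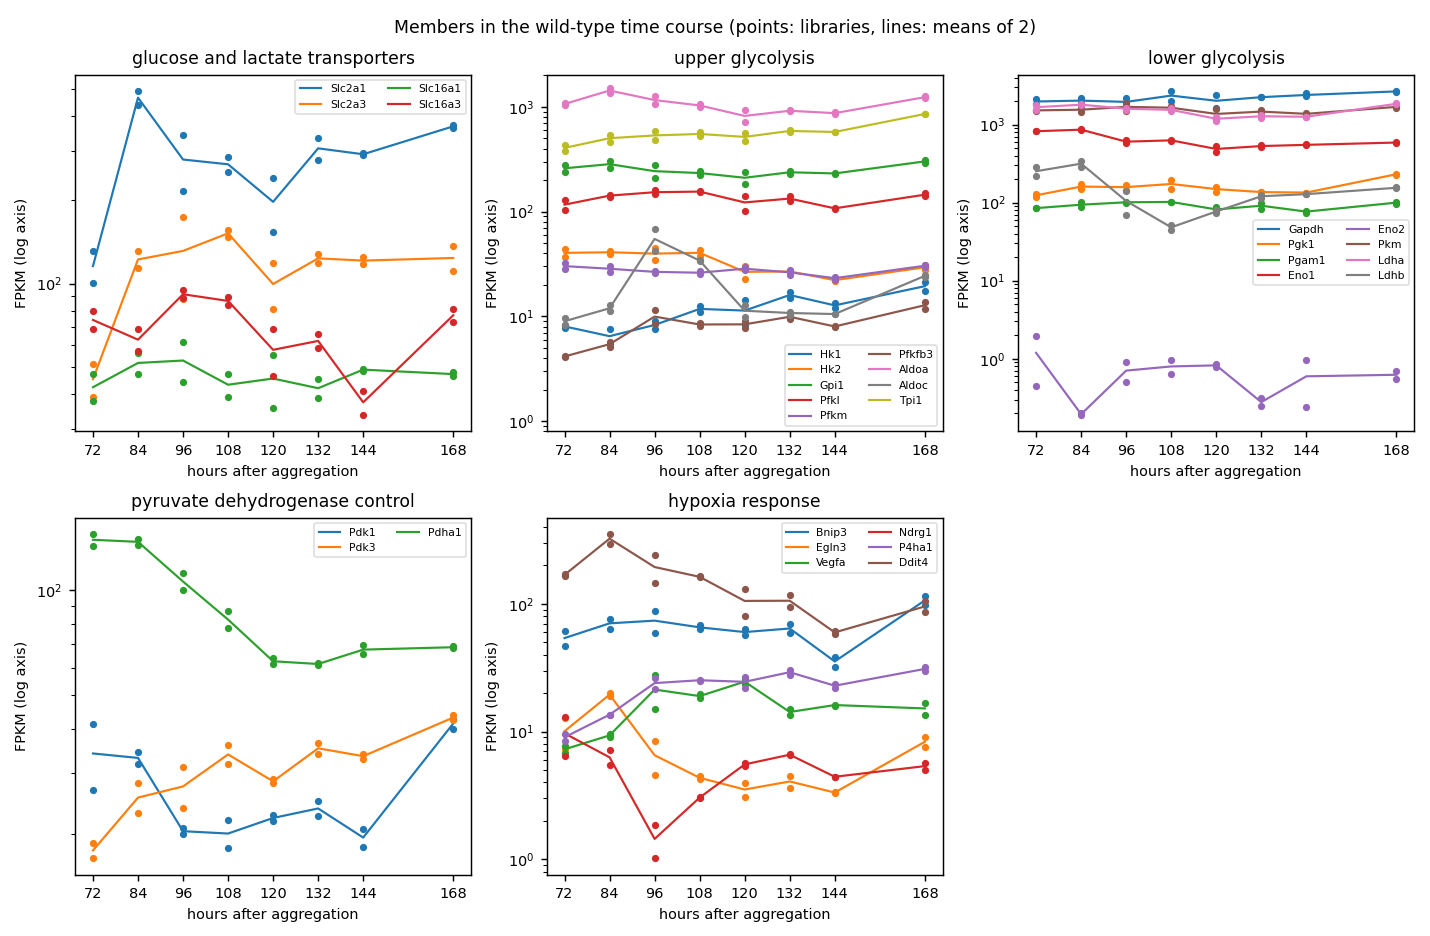
FPKM (log axis) of the members against hours after aggregation in the wild-type time course, 1 panel per role, with a point for each library and a line through the means of 2 (Pfkp and Ankrd37, listed at 0 in most libraries, are left out). Slc2a1 rises between 72 h and 84 h, Aldoc peaks at 96 h, Ndrg1 is lowest at 96 h, Pdha1 falls until 132 h, and the abundant enzymes such as Gapdh and Pkm stay level on this scale.

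Both glucose transporters were higher at 84 h than at 72 h, a step that was not tested. Slc2a1, the main transporter of fetal tissues, was at 100.7 and 130.5 FPKM at 72 h and at 494 and 439 at 84 h, its highest stage. Slc2a3, which has a higher affinity for glucose, went from 39.1 and 51.5 FPKM at 72 h to 131 and 113 at 84 h. Ddit4 and Egln3 also had their highest stage at 84 h, with 165 and 172 FPKM and then 352 and 296 for Ddit4. Between 72 h and 96 h both transporters passed the test, with log2 changes of 1.25 ± 0.18 (SE, n = 2 and 2, limma adjusted p = 6.02e-07) for Slc2a1 and 1.46 ± 0.18 for Slc2a3 (limma adjusted p = 4.98e-08). The libraries of 1 stage could differ widely, as for Slc2a1 at 96 h with 343 and 216 FPKM. The monocarboxylate transporter Slc16a1, which carries lactate, ranged from 35.7 to 61.5 FPKM over the 16 libraries and did not pass.

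Between 72 h and 96 h, 7 members were higher and 5 lower, beside 38.3% of all genes called (17.7% higher and 20.6% lower). Aldoc, the brain-type aldolase, showed a short peak, with 8.27 and 9.69 FPKM at 72 h, 42.0 and 67.7 at 96 h, and 9.82 and 12.8 at 120 h. Its log2 changes were 2.56 ± 0.26 to 96 h and -2.24 ± 0.26 to 120 h (limma adjusted p = 9.05e-10 and 6.33e-08). The rises of P4ha1, a collagen prolyl hydroxylase subunit, Vegfa, the endothelial growth factor, and Pfkfb3, which makes the activator of phosphofructokinase, were smaller. P4ha1 went from 8.43 and 9.61 FPKM to 21.6 and 26.3, Vegfa from 6.84 and 7.69 to 15.1 and 27.6, and Pfkfb3 from 4.22 and 4.06 to 8.49 and 11.4. All 3 passed.

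Ndrg1, a stress-responsive gene also repressed by Myc proteins, moved the other way, from 12.96 and 6.42 FPKM at 72 h to 1.02 and 1.87 at 96 h, and stood at 5.71 and 5.35 at 120 h. Its log2 changes were -2.64 ± 0.28 and 1.92 ± 0.28 (limma adjusted p = 3.31e-09 and 4.72e-06). Ldhb, the lactate dehydrogenase subunit of oxidative tissues, fell from 219.7 and 286 FPKM at 72 h to 69.2 and 141 at 96 h (log2 change -1.34 ± 0.18, limma adjusted p = 1.78e-07) and was lowest at 108 h with 44.9 and 51.6. Ldha, the other subunit, ranged from 1108 to 1875 FPKM over the 16 libraries and did not pass the test across stages.

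From 96 h to 120 h, 2 members were higher and 8 lower, with 20.7% of all genes called (12% higher and 8.78% lower). Pdha1, the catalytic subunit of pyruvate dehydrogenase, was at 112 and 100.03 FPKM at 96 h and at 63.9 and 61.3 at 120 h, a log2 change of -0.76 ± 0.06 (limma adjusted p = 2.66e-11), and the kinases Pdk1 and Pdk3 did not pass. Hk2, Aldoa, Eno1, Slc2a1, Egln3 and Ddit4 also fell, with log2 changes from -0.88 to -0.31. One of the 2 higher members was Ndrg1, and the other was Ankrd37, which was at 4.19 FPKM in 1 library of 120 h and listed at 0 in the other 15, so that no fold is given for it. Without replicate 1 of 120 h the count fell from 10 to 6.

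**Figure D2:**
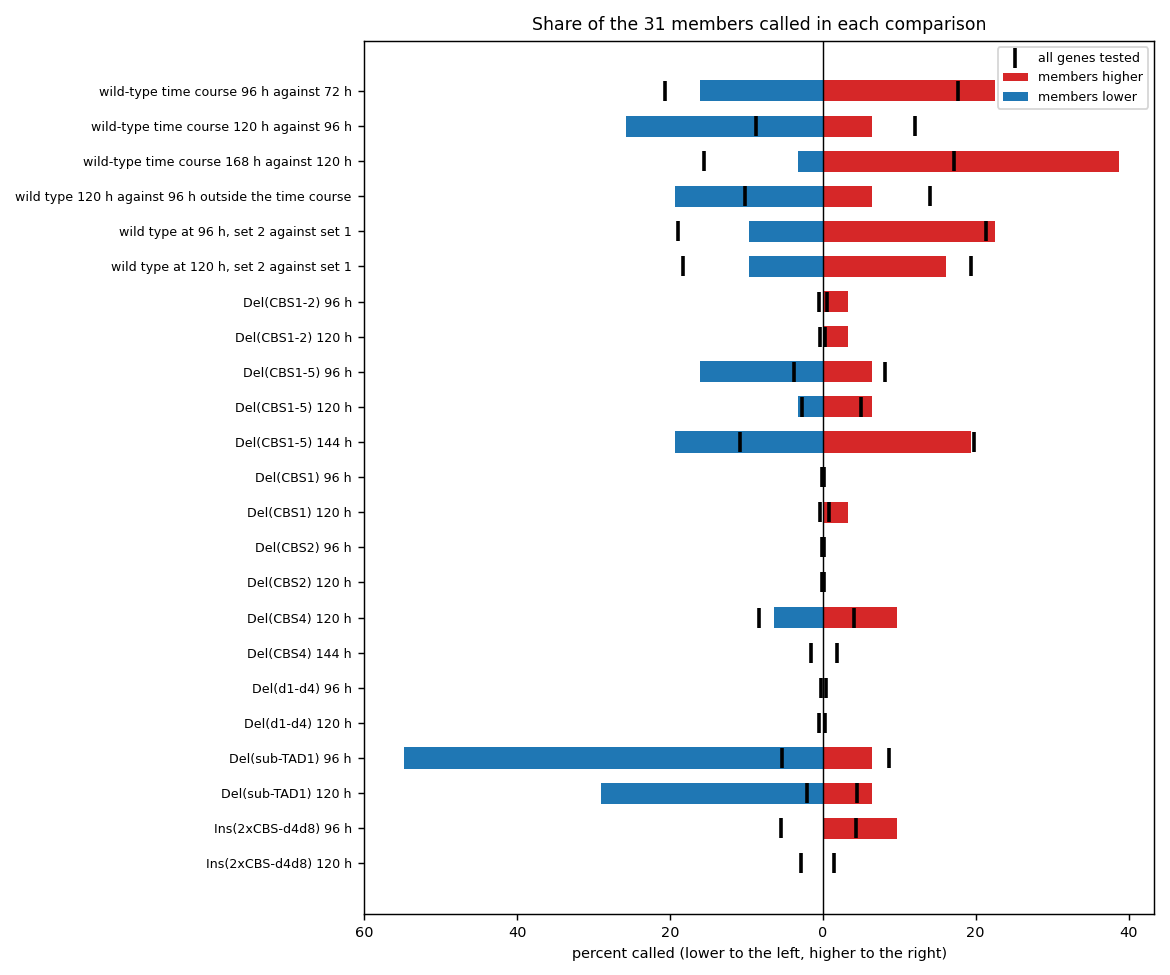
Percent of the 31 tested members called higher (red, to the right) and lower (blue, to the left) in each comparison, with black ticks for the percent of all 17148 genes called in the same direction. Of the red bars that pass their tick, the one from 120 h to 168 h does so by most. The blue bars pass theirs most in Del(sub-TAD1), at 17 of 31 members against 5.37% at 96 h and 9 of 31 against 2.08% at 120 h. The counts hold Ankrd37 in the steps to and from 120 h of the time course and in Del(CBS1-5) at 144 h.

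From 120 h to 168 h, 12 members were higher and 1 (Ankrd37, again through that library) was lower, with 32.6% of all genes called (17.1% higher and 15.5% lower). The higher members came from every role, with 5 of 9 upper and 3 of 8 lower glycolysis genes, Slc2a1, both pyruvate dehydrogenase kinases and Egln3, a HIF prolyl hydroxylase that is itself a HIF target. Egln3 went from 3.09 and 3.94 FPKM to 9.07 and 7.56 (log2 change 1.22 ± 0.19, limma adjusted p = 5.58e-06) and the hexokinase Hk1 from 8.29 and 14.4 to 21.3 and 17.6 (0.82 ± 0.16, limma adjusted p = 0.0001). Pdk1, at 22.7 and 21.8 FPKM at 120 h, stood at 42.9 and 40.1 at 168 h (0.90 ± 0.31, limma adjusted p = 0.0248), a call that none of the 4 fits without a library kept. Without replicate 1 of 120 h 7 members passed. In limma fits of only the libraries compared, 0 members passed in the first and second of these 3 steps and 3 in the last, while a fit of the 16 time-course libraries called 23 across the stages. Bnip3, a mitophagy receptor and HIF target, was at 115 and 97.8 FPKM at 168 h and at 32.3 and 38.6 at 144 h, the highest and lowest stage means of the time course. The 2 other wild-type libraries of 144 h held 57.0 and 54.8 FPKM.

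The other genes of these pathways moved in both directions. Of 23 further hypoxia targets tested, 10 rose and 4 fell from 72 h to 96 h, and 13 rose and 3 fell from 120 h to 168 h. Among them P4ha2 rose with P4ha1 to 96 h (log2 change 1.47 ± 0.17) while Bhlhe40, a transcriptional repressor, fell (-2.18 ± 0.22). Of 18 tricarboxylic acid cycle genes 7 fell and none rose from 72 h to 96 h, with Idh3a at -1.12 ± 0.07, and from 120 h to 168 h 7 rose and 2 fell. Of the 9 HIF pathway regulators, Egln1, which marks HIF for destruction, rose by 1.08 ± 0.19 from 120 h to 168 h. Cell type markers moved with the same stages, and their part in these changes was not tested. All 8 spinal cord markers tested rose from 120 h to 168 h, and 5 of 6 presomitic markers fell.

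The step from 96 h to 120 h was also sampled outside the time course, in 3 set 1 libraries a stage. There 2 members rose and 6 fell, with 24.1% of all genes called (14% higher and 10.2% lower). Aldoc (-2.48 ± 0.25), Pdha1 (-0.78 ± 0.06), Ndrg1 (1.91 ± 0.25), Ddit4 (-1.30 ± 0.30), an mTORC1 inhibitor, Hk2, Aldoa and Eno1 were called in the same direction in the time course, whose libraries are separate. Hk1 (0.53 ± 0.14) was not called there. The difference between the 2 series was not tested.

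Pgk1, Pgam1 and Eno1, enzymes of lower glycolysis, separated the sets. In wild type at 96 h, Pgk1 was at 596, 569 and 244 FPKM in set 1 and at 170.5, 146 and 112 in set 2 (log2 change -1.63 ± 0.24, limma adjusted p = 5.8e-07). Pgam1 was at 534, 523 and 379 against 102.4, 99.9 and 85.3 (-2.31 ± 0.13), and Eno1 at 956, 945 and 1049 against 635, 574 and 769 (-0.59 ± 0.11). In all, 7 members were higher and 3 lower in set 2 at 96 h, with 40.2% of all genes called (21.3% higher and 18.9% lower), and 5 and 3 at 120 h, with 37.7% called (19.4% and 18.3%). The median over all genes was 0.106 at 96 h and 0.120 at 120 h on the log2 scale. Scaling by median ratios moved it to -0.0255 and -0.0121, and 3 members were then called at either stage. The share of all genes called after scaling was not counted. The 3 enzymes have near-identical copies in the genome, whose values differed too: Pgk1-rs7 was between 106 and 269 FPKM in set 1 at 96 h and at most 0.0426 in set 2, and Pgam1-ps2 between 184 and 261 against at most 0.460. Levels of Pgk1, Pgam1, Eno1 and, with smaller copies, Ldha, Ldhb, Tpi1 and Gpi1 are therefore uncertain, and mutants are compared with wild type within a set.

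The wild-type libraries of 1 stage and set did not agree for these genes. In set 1, replicate 3 was the lowest of 3 libraries for 23 of 31 members at 96 h and for 25 of 31 at 120 h, whereas it was the lowest for 31.3% and 36.9% of all genes. Its median difference from the mean of the other 2 over the members was -0.48 at 96 h and -0.42 at 120 h on the log2 scale, beside 0.055 and 0.0046 over all genes. In set 2, replicate 4 was the lowest of 3 for 22 members at 96 h and 23 at 120 h, with medians of -0.37 and -0.67 against the time-course libraries. It was the lowest for 27.8% and 29.8% of all genes. Bnip3 was at 57.5, 55.1 and 14.9 FPKM in replicates 1 to 3 of set 1 at 96 h and at 45.5, 40.4 and 10.1 at 120 h. In set 2 it was at 59.5 and 88.2 in the time course and 31.4 in replicate 4 at 96 h, and at 57.2 and 63.0 and then 8.49 at 120 h. Replicates 3 and 4 were thus each the lowest of their set. Pdk1 at 120 h was at 18.1, 16.0 and 6.16 FPKM in set 1, and at 22.7 and 21.8 and then 5.64 in set 2. Ldha was at 1208, 1169.6 and 543 in set 1, and at 1108 and 1269.5 and then 614 in set 2, again with replicates 3 and 4 the lowest. At 120 h the lactate exporter Slc16a3 was at 50.2 and 43.8 FPKM in replicates 1 and 2. It was listed at 0 in replicates 3 and 4. The same 0 stood in Del(sub-TAD1) replicate 1 at 96 h and in both Del(sub-TAD1) libraries at 120 h. An exact 0 can be a failed estimate, although none of these was marked as one.

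**Figure D3:**
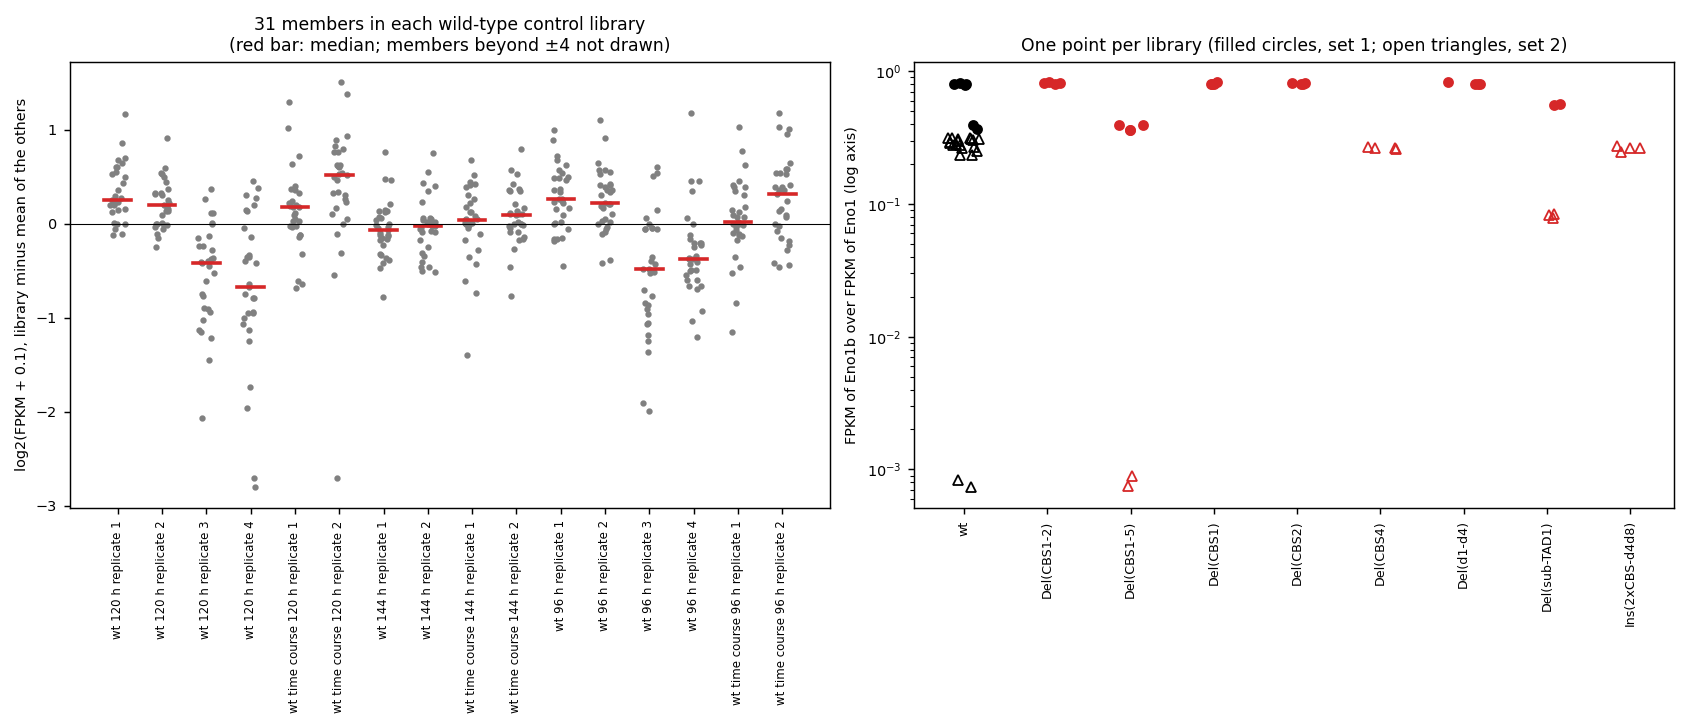
Left, log2(FPKM + 0.1) of each of 31 members in every wild-type control library minus the mean of the other libraries of its stage and set (grey points, red bar for the median). Replicates 3 and 4 have medians between -0.37 and -0.67. Right, FPKM of Eno1b over FPKM of Eno1 (log axis), 1 point per library by genotype, where 2 wild-type libraries lie among set 1 Del(CBS1-5) (0.361 to 0.397) and 2, at 0.000829 and 0.000732, in or just under the range of set 2 Del(CBS1-5) (0.000753 to 0.000897).

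The same libraries stood apart in the ratio of Eno1b, a near-identical copy of Eno1, to Eno1 itself. In set 1 the ratio was between 0.795 and 0.83 in 20 libraries, which were wild-type replicates 1 and 2, Del(CBS1), Del(CBS1-2), Del(CBS2) and Del(d1-d4). It was 0.369 and 0.396 in wild-type replicate 3, between 0.361 and 0.397 in Del(CBS1-5), and 0.556 and 0.568 in Del(sub-TAD1). In set 2 it was 0.000829 and 0.000732 in wild-type replicate 4, 0.000753 and 0.000897 in Del(CBS1-5), 0.0791 to 0.0838 in Del(sub-TAD1), and 0.233 to 0.315 in the remaining libraries. Summed pluripotency markers were 52.0, 55.0 and 354 FPKM in wild-type replicates 1 to 3 at 96 h, but 69.1 in replicate 4. The labels give 1 genotype, wild type, for all of these libraries. The part of cell line or background in the members' levels was not tested. Counts without some of these libraries are given below for mutant comparisons, and ranges over all single libraries at the end. Mutants of 1 stage and set share their control libraries, so their comparisons are not independent. All tests below take the spread from all 61 libraries. In limma fits of only the libraries compared, members were called in Del(CBS1-5) at 144 h (9), Del(sub-TAD1) at 120 h (1) and Del(CBS1-2) at 96 h (1), and in no other mutant comparison.

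**Figure D4:**
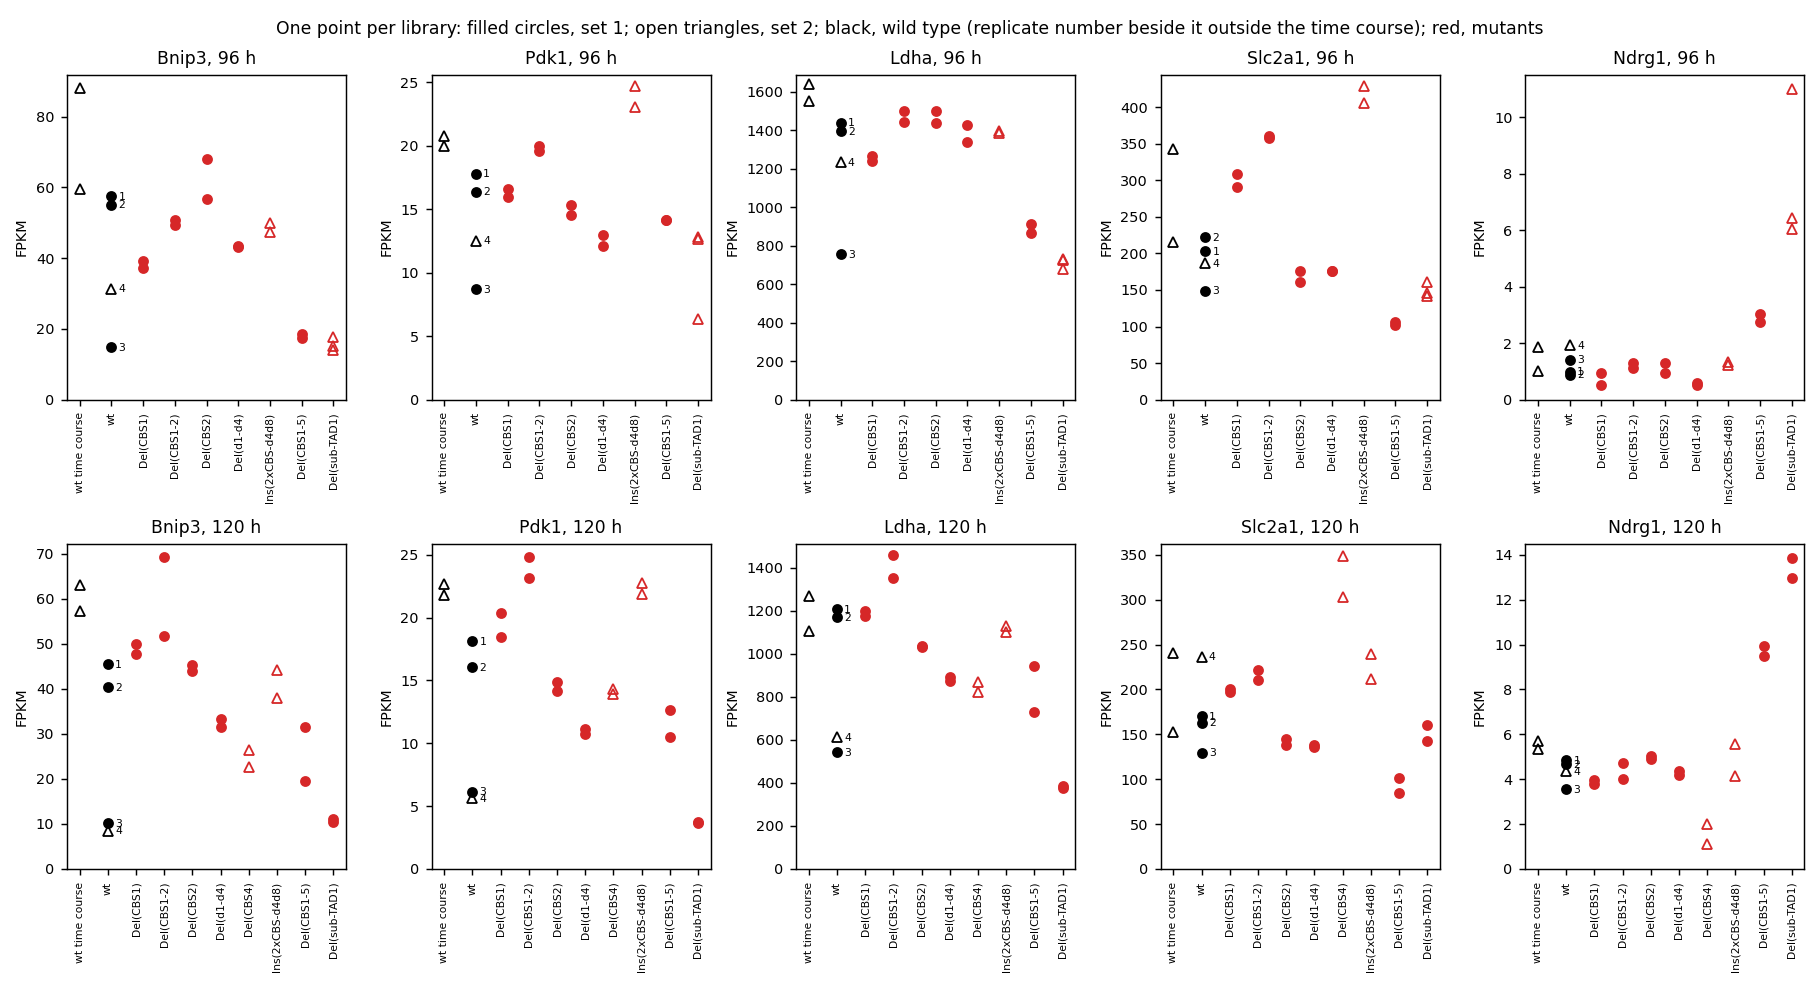
FPKM of 5 members in every library by genotype, with 96 h in the upper row and 120 h in the lower. Wild-type libraries are black, with replicate numbers beside those outside the time course, and mutants are red. Filled circles are set 1 and open triangles set 2. Pdk1 and Ldha of Del(sub-TAD1) at 120 h lie under every wild-type library of their set, while Ndrg1 of Del(sub-TAD1) and Del(CBS1-5) lies above every wild-type library of its set at both stages.

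More members were called in Del(sub-TAD1) at 96 h than in any other mutant comparison, and it alone had 3 mutant libraries. In fits of only the compared groups it had none, and Del(CBS1-5) at 144 h had the most. With all libraries in the fit, 14% of all genes were called in Del(sub-TAD1) at 96 h (5.37% lower and 8.67% higher). Of the members, 17 of 31 were lower and 2 higher. The lower ones were 8 of 9 upper and 6 of 8 lower glycolysis genes, Slc2a1, Bnip3 and P4ha1. Ldha was at 678, 728 and 729 FPKM in the 3 mutant libraries and at 1554, 1642 and 1234 in the controls, so that the groups did not overlap (log2 change -1.04 ± 0.21, limma adjusted p = 0.000784). Pfkl, the liver type of phosphofructokinase, was at 55.0, 63.4 and 64.5 against 159.8, 147 and 108 (-1.16 ± 0.22, limma adjusted p = 0.000499). Pgk1 was at 69.3, 68.1 and 71.6 against 170.5, 146 and 112 (-1.01 ± 0.24, limma adjusted p = 0.00405). These 3 calls were kept in every fit that left out 1 library. Bnip3 was at 15.2, 13.97 and 17.7 against 59.5, 88.2 and 31.4 (-1.81 ± 0.49, limma adjusted p = 0.012), a call lost without replicate 2 of the time course.

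Ndrg1 went up where the enzymes went down, at 10.99, 6.42 and 6.03 FPKM against 1.02, 1.87 and 1.93 (log2 change 2.21 ± 0.25, limma adjusted p = 4.76e-08). Eno2, the neuronal enolase, was the other higher member, from a low level (1.96, 2.90 and 2.93 against 0.498, 0.910 and 1.65). Vegfa and Egln3 did not pass, with 12.3, 27.4 and 23.7 FPKM against 15.1, 27.6 and 13.4 for Vegfa. Leaving out 1 library gave between 14 and 20 called members, with 18 without wild-type replicate 4. Targets of the integrated stress response, such as Chac1, Trib3 and Atf3, were higher for 7 of 8 tested. Their summed level was 435, 872 and 859 FPKM in the 3 libraries and 374 to 390 in the controls, and summed pluripotency markers were 116, 410 and 484 FPKM against 80.3, 111 and 69.1. The part of either in the result was not tested. Of 17 further glycolysis genes 2 were higher and none lower, and of 23 further hypoxia targets 2 were higher and 5 lower.

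At 120 h in set 1, Del(sub-TAD1) had 9 members lower and 2 higher, with 6.6% of all genes called (2.08% lower and 4.52% higher). Ldha was at 386 and 374 FPKM against 1208, 1169.6 and 543 (-1.27 ± 0.23, limma adjusted p = 0.000473), and Ndrg1 at 12.96 and 13.9 against 4.85, 4.66 and 3.56 (1.61 ± 0.28, limma adjusted p = 0.000178). Both calls were kept in every fit that left out 1 library. Pdk1 was at 3.74 and 3.67 against 18.1, 16.0 and 6.16 (-1.69 ± 0.38, limma adjusted p = 0.00417). Aldoa, Aldoc, Tpi1, Pfkl, Pgk1 and Pgam1 each kept their call in only 1 of the 5 such fits, the one without wild-type replicate 3. Without that replicate 16 members were called, and without either mutant library 2. The share of all genes called without wild-type replicate 3 was not counted here. Bnip3, at 10.5 and 10.996 FPKM, did not pass.

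In Del(CBS1-5) at 96 h 5 members were lower and 2 higher, with 11.8% of all genes called (3.75% lower and 8.09% higher). Slc2a1 was at 101.7 and 107 FPKM against 203, 223 and 149 (-0.86 ± 0.19, limma adjusted p = 0.00218), and Ndrg1 at 2.75 and 3.04 against 0.992, 0.883 and 1.41 (1.35 ± 0.28, limma adjusted p = 0.00113). These 2 calls stayed in every fit without 1 library. Hk2, Pfkfb3, Aldoc, Vegfa and Ldhb stayed only without wild-type replicate 3, where 16 members and 19.9% of all genes were called. Against replicate 3 alone, whose Eno1b ratio lies among those of the mutant, no member was called by limma and 0.764% of all genes were. That comparison was chosen after seeing the data and assumes that the lone library varies like the others. A call lost there is by itself no sign of a smaller change. The log2 change of Ndrg1 in it was 0.99 and that of Slc2a1 -0.52, both smaller in size than with all controls. The median change over the members was then 0.17, against -0.17 with all controls and -0.33 without replicate 3. At 120 h 2 members were higher and 1 lower, with 7.82% of all genes called (5.05% higher and 2.77% lower), and none against replicate 3 alone (0.595% of all genes), where the log2 change of Ndrg1 was 1.42. Ndrg1, at 9.94 and 9.48 FPKM, was above its controls at 4.85, 4.66 and 3.56 (1.15 ± 0.28, limma adjusted p = 0.00758). Without wild-type replicate 3, 3 members and 15.7% of all genes were called at 120 h. Without either mutant library no member passed at 120 h. Summed pluripotency markers were 781 and 779.7 FPKM at 96 h, against 52.0, 55.0 and 354 in the controls, and 642.5 and 731 at 120 h, against 39.5, 38.1 and 353. Their part in these changes was not tested.

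At 144 h 6 members of Del(CBS1-5) were higher and 6 lower, with 30.6% of all genes called (19.8% higher and 10.8% lower). Egln3 was at 21.0 and 20.3 FPKM and at 3.78, 3.61, 3.31 and 3.35 in the 4 wild-type libraries (log2 change 2.52 ± 0.22, limma adjusted p = 4.87e-11). Ankrd37 was at 5.39 and 4.70 and listed at 0 in all 4 controls. Ndrg1 was at 6.49 and 7.07 against 2.99, 2.69, 4.41 and 4.44. The other higher members were the glucose transporter Slc2a3, at 148 and 139 against 58.1, 68.7, 124 and 118, the low gene Eno2, and Pdha1. The lower members were Aldoc, Tpi1, Gapdh, Ldha, Slc16a1 and Pdk3. Ldha, for instance, was at 675 and 772 against 1252, 1280.5, 1270.0 and 1252 (-0.81 ± 0.22, limma adjusted p = 0.00502), and Aldoc at 5.75 and 5.42 against 16.9, 16.7, 10.6 and 10.4. Bnip3, at 32.6 and 39.9, did not pass. Leaving out 1 library gave 5 to 14 called members, with 5 without replicate 1 of the mutant. No wild-type library of this stage has an Eno1b ratio near that of the mutant. Of 8 pluripotency markers tested 7 were higher and 1 lower, with a summed level of 947 and 867 FPKM against 7.87 to 117, and all 6 presomitic markers were lower. The part of either was not tested.

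Ndrg1 also led in Del(CBS4), in the other direction. At 120 h it was at 2.01 and 1.10 FPKM against 5.71, 5.35 and 4.35 (log2 change -1.71 ± 0.28, limma adjusted p = 4.45e-05), kept in every fit without 1 library. At 144 h it was at 2.98 and 3.08 against 2.99, 2.69, 4.41 and 4.44 and did not pass. The difference between the stages was 1.49 ± 0.38 (limma adjusted p = 0.0239), a call kept in 7 of 11 fits without 1 library. It was the only one called among members in 7 such tests, beside 2.55% of all genes in that test. In the others the share of all genes was 0.0117% for Del(CBS1) and Del(CBS2), 0.0292% for Del(d1-d4), 0.035% for Del(CBS1-2), 0.0816% for Del(CBS1-5) and 0.192% for Ins(2xCBS-d4d8). Without wild-type replicate 4 of 120 h, the 7 tests called 4 members, and the share of all genes was not counted. Besides Ndrg1, Pfkfb3 was lower and Slc2a1, Slc16a1 and Pdk3 higher at 120 h, 5 members with 12.4% of all genes called (8.3% lower and 4.13% higher). Without wild-type replicate 4 there were 9, and without mutant replicate 2 there was 1. Slc2a1 was at 303 and 349 against 153, 241 and 237. Endoderm markers were lower for 5 of 6 and endothelium markers for 5 of 7, and spinal cord markers were higher for 5 of 8. Summed spinal cord markers were 85.6 and 150.4 FPKM, against 8.07 to 31.2 in wild-type libraries of that stage, somite markers 219.9 and 319 against 449 to 542, and integrated stress response targets 572 and 579 against 363 to 529.5. The part of these was not tested. At 144 h no member was called by limma, with 3.4% of all genes called and 3 members at an unadjusted p under 0.05.

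**Figure D5:**
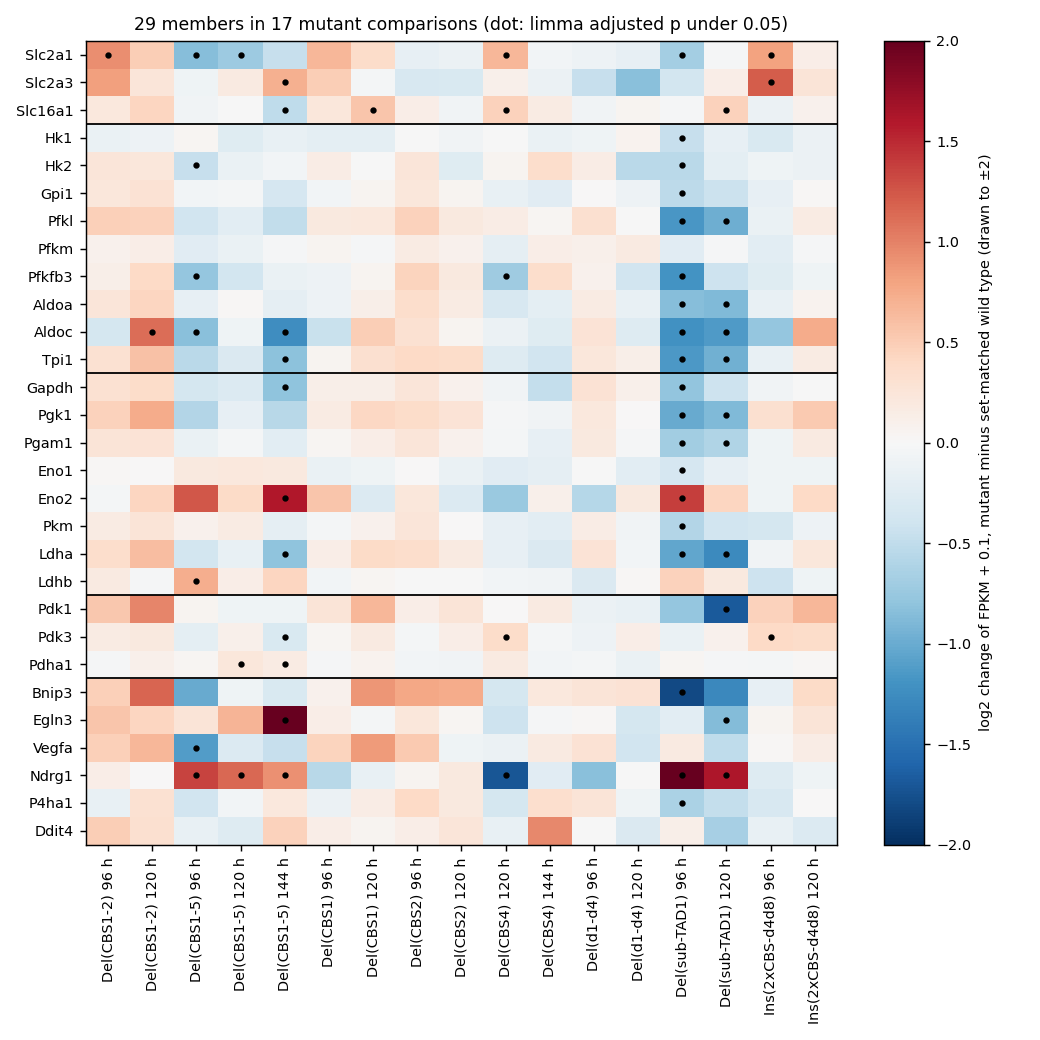
Log2 change of FPKM + 0.1 (colour, drawn to ±2) of 29 members, by role, in 17 mutant comparisons with wild type of the same stage and set, with a dot where the limma adjusted p is under 0.05. Pfkp, Ankrd37 and Slc16a3, which have values listed at 0, are left out. The columns of Del(sub-TAD1) are blue over most glycolysis rows, and the Ndrg1 row is red in the 5 columns of Del(CBS1-5) and Del(sub-TAD1).

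The remaining mutants moved few members. In Ins(2xCBS-d4d8) at 96 h both glucose transporters and Pdk3 were higher, 3 members with 9.9% of all genes called (4.39% higher and 5.51% lower). Slc2a3 was at 265 and 237 FPKM against 174, 88.1 and 81.9 (1.21 ± 0.23, limma adjusted p = 0.000979, kept in every fit without 1 library) and Slc2a1 at 428 and 406 against 343, 216 and 186 (0.80 ± 0.19, limma adjusted p = 0.00604). Without replicate 1 of the insertion 1 member passed, without wild-type replicate 4 there were 2, and without replicate 1 of the time course 5. At 120 h none passed in limma, with 4.31% of all genes called and 3 members at an unadjusted p under 0.05.

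Del(CBS1-2) had 1 member called at 96 h, Slc2a1 at 361 and 358 FPKM against 203, 223 and 149 (0.93 ± 0.19, limma adjusted p = 0.00949, with 1% of all genes called). It had 1 at 120 h, Aldoc at 14.4 and 16.7 against 9.37, 8.15 and 4.62 (limma adjusted p = 0.045, 0.606% of all genes), and neither call was kept without either mutant library. Without wild-type replicate 3 there was 1 at 96 h and 0 at 120 h. Del(CBS1) had none at 96 h, with 0.227% of all genes called and 2 members at an unadjusted p under 0.05. At 120 h it had Slc16a1 alone (48.7 and 53.2 against 34.7, 34.4 and 34.7, limma adjusted p = 0.0277, 1.2% of all genes), which none of the 5 fits without 1 library kept. Del(CBS2), with 0.233% and 0.198% of all genes called, had no member called by limma at either stage and 0 at an unadjusted p under 0.05. Del(d1-d4), with 0.63% and 0.758%, had none called by limma, and 1 member at 96 h and 3 at 120 h at an unadjusted p under 0.05.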

How the data were processed

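RNA-seq was deposited as FPKM for 61 libraries. Per the labels and methods, the authors made paired-end, stranded poly-A libraries, trimmed reads with cutadapt 1.16, aligned them with STAR 2.7.7a to mm10 and computed FPKM values with Cufflinks 2.2.1 on a custom Ensembl-based annotation. These values hold no counts, so no count test was run, and depth was inferred from FPKM steps of low genes. All value columns were matched to a sample (0 were left over). Gapdh was marked as a failed estimate in replicate 2 of Del(CBS1-5) at 120 h, and its value was kept.

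Groups came from the labels and were split into sets at 100 FPKM of mt-Co2 and mt-Co3. All 61 libraries were fitted together with limma 3.58.1 (R 4.3.3) on log2(FPKM + 0.1), over 17148 genes with a group mean of at least 1 FPKM, and two-sided p-values were adjusted by Benjamini-Hochberg over all of them at a threshold of 0.05. Fits were tested on simulated data. Summaries used Python 3.11.15 and pandas 2.3.3. The members and lists were chosen with earlier results of these data known. All 32 members could be named, and of other lists at most the 3 genes with the largest change among those called, per comparison. The copies Eno1b, Pgk1-rs7 and Pgam1-ps2 were singled out after their values were seen. Deviations of same-numbered 96 h and 120 h wild-type libraries outside the time course correlated at 0.174 to 0.423. They were taken from the mean of 3 libraries. A replicate 3 that stands apart at both stages raises all 3 values, so they cannot show that the numbers pair libraries. Same-numbered mutant and wild-type deviations correlated at -0.078 to 0.098. At 96 h and 120 h those wild-type deviations hold the same part of replicate 3, so pairing is not excluded there.

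The alternatives tried were a pseudocount of 1, no filter, median-ratio scaling, a fit of only the compared groups, other controls, a replicate block and leaving out each library.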

Additional observations from a re-analysis of the deposited data

Results flagged for a closer look

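In groups of 4 wild-type libraries, 60 tests of the highest or lowest library found 6 values whose gap to the nearest library was a large share of the group's range. Chance alone flags about 1 in 20 groups. All 6 came from replicates 3 and 4. At 96 h replicate 3 was lowest for Hk2 (19.35 FPKM against 30.3 to 31.96), Aldoc (27.03 against 47.18 to 50.12), Pkm (1077 against 1429 to 1466) and P4ha1 (10.99 against 19.92 to 20.71), and replicate 4 was highest for Hk1 (11.34 against 6.451 to 6.671). At 120 h replicate 4 was highest for Slc16a1 (49.25 against 34.42 to 34.74). These groups hold 3 libraries of set 1 and 1 of set 2, and replicate 4 is the set 2 library.

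The effect of Del(CBS4) on Ndrg1 differed between stages by 1.489 on the log2 scale, 144 h minus 120 h, by limma's test of the difference itself.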

How the results depend on the processing

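A pseudocount of 1 gave 0 called members for Del(CBS1-2) at 120 h and 1 for Ins(2xCBS-d4d8) at 120 h, no filter gave 0 for the former, and median-ratio scaling gave 3 for set 2 against set 1 at 96 h, 3 at 120 h and 1 for Ins(2xCBS-d4d8) at 120 h. A fit of only the compared groups has fewer libraries to estimate the spread. It gave 0 for the time course from 72 h to 96 h and from 96 h to 120 h, 3 from 120 h to 168 h, 5 for 96 h to 120 h outside the time course, 2 and 3 for the sets at 96 h and 120 h, 1 for Del(sub-TAD1) at 120 h, and 0 for Del(sub-TAD1) at 96 h, Del(CBS1-5) at 96 h and 120 h, Del(CBS1-2), Del(CBS1) and Del(CBS4) at 120 h, Ins(2xCBS-d4d8) at 96 h and the stage differences. Fits without single libraries took the spread from all the others. Their share of all genes was counted only for Del(CBS1-5) without wild-type replicate 3.

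With all wild-type libraries outside the time course as controls the counts were 3 and 4 for Del(CBS1-2) at 96 h and 120 h, 1 for Del(CBS1) at 96 h, 9 and 1 for Del(CBS4) at 120 h and 144 h, 1 and 2 for Del(d1-d4) at 96 h and 120 h, 7 and 8 for Ins(2xCBS-d4d8) at 96 h and 120 h, and 7 for the stage differences. There Pgam1 in Del(sub-TAD1) at 120 h turned to 0.17, since those controls mix the sets. Against wild-type replicate 3 alone, chosen after seeing the data, Del(CBS1-5) had 0 at 96 h and 0 at 120 h, and at 96 h Hk2 (0.0053) and Pfkfb3 (0.014) changed sign, and the cause was not tested.

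The replicate block gave 2 for Del(CBS1-2) at 96 h, 18 and 8 for Del(CBS1-5) at 96 h and 120 h, 18 for Del(sub-TAD1) at 120 h, 1 for Del(CBS4) at 144 h and 3 for Del(d1-d4) at 120 h. No member called without the block lost its call under it, and the count of 8 between the 96 h and 120 h wild-type libraries did not move. In all of these the samples share only a number, and whether it pairs them is not known. No paired analysis was possible for set 2 mutants at 96 h and 120 h because the groups share fewer than 2 numbers. The block was not tried for stage differences.

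Leaving out 1 library gave 19 to 26 across the time course, 12 to 14, 6 to 12 and 7 to 15 for its 3 steps, 6 to 10 for 96 h to 120 h outside it, and 7 to 15 and 5 to 16 for the sets. For mutants, stages in order, it gave 2 to 16, 0 to 3 and 5 to 14 for Del(CBS1-5), 14 to 20 and 2 to 16 for Del(sub-TAD1), 1 to 5 and 0 to 1 for Ins(2xCBS-d4d8), 0 to 1 and 0 to 1 for Del(CBS1-2), 0 and 0 to 1 for Del(CBS1), 1 to 9 and 0 for Del(CBS4) at 120 h and 144 h, 0 for Del(CBS2) and Del(d1-d4) at both stages, and 0 to 4 for the stage differences.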

Other observations

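Epas1, which encodes HIF-2alpha, was higher in both genotypes whose ES cells were derived from mice, by 1.58 at 96 h, 1.55 at 120 h and 1.56 at 144 h on the log2 scale in Del(CBS1-5) and by 1.54 and 1.27 in Del(sub-TAD1) at 96 h and 120 h. It was lower in Del(CBS4) at 120 h (-1.10). Epas1 was a low gene throughout, with a median of 0.334 FPKM, a highest value of 2.96 FPKM and under 1 FPKM in 49 of the 61 libraries. Ak4, a mitochondrial adenylate kinase, was lower in Del(sub-TAD1) at 96 h (-1.25) and 120 h (-1.25) and in Del(CBS1-5) at 144 h (-1.04). All of these passed limma's test, with the controls used above. They were not refitted without single libraries.

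Bhlhe40 was lower in Del(CBS4) at 120 h (-1.91), Del(d1-d4) at 96 h (-1.14) and 120 h (-1.53), Del(CBS1) at 96 h (-1.27) and Ins(2xCBS-d4d8) at 96 h (-0.69), and higher in Del(sub-TAD1) at 96 h (0.99) and in Del(CBS1-5) at 96 h (0.71) and 144 h (0.87). In Del(CBS4) it was also higher at 144 h (0.75), and the difference between the stages was 2.66 ± 0.28 (limma adjusted p = 1.03e-07). Bhlhe40 was a low gene, with a median of 1.66 FPKM, a highest value of 11.3 FPKM and under 1 FPKM in 9 libraries. Its changes were not refitted without single libraries.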
